A study of Mus musculus with 16 samples.

Results

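Metallothioneins bind zinc inside cells, and ZIP and ZnT transporters carry it across membranes. The genes described here are Mt1 and Mt2, the metallothioneins expressed in most mouse tissues, Slc39a14 and Slc39a8, which encode the zinc importers ZIP14 and ZIP8, and Slc30a1, which encodes the zinc exporter ZnT1. Every probe set that the platform annotation mapped to exactly 1 of these 5 symbols was taken, which gave 8 of the 22626 probe sets tested, for 5 of 12393 gene symbols. Mt1, Slc39a14 and Slc39a8 had 2 probe sets each, and Mt2 and Slc30a1 had 1 each. No probe set carried a member among several symbols.

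The 16 arrays each held RNA from the left lung of 1 mouse, in 4 groups of 4 mice with 2 males and 2 females per group (M1, M2, F1 and F2). Deficient ozone mice lacked adiponectin, a hormone of fat cells, and breathed 0.3 ppm ozone, an oxidant gas, for 72 h, and deficient air mice of the same genotype breathed room air for 72 h. Wildtype ozone and wildtype air mice were given the same exposures. All mice had a C57BL/6 background and a mean age of 14 weeks, and lungs were taken right after exposure. The sources used here do not say which part of Adipoq had been removed. Levels are log2 intensity, differences are log2 ± SE of a limma fit with genotype-exposure group and sex as terms, and a probe set was called where the p adjusted over all probe sets (Benjamini-Hochberg) was under 0.05.

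Metallothioneins are small proteins rich in cysteine that hold zinc, copper and cadmium and react with oxidants. Free zinc is sensed by the transcription factor MTF-1, which binds metal response elements in the promoters of mouse Mt1, Mt2 and Slc30a1, and glucocorticoids and IL-6 acting through STAT3 also induce mouse metallothioneins. ZIP proteins bring zinc into the cytosol and ZnT proteins move it out, and ZIP14 is known as the importer that IL-6 raises in mouse liver during the acute phase response.

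The promoters of the 3 genes known as MTF-1 targets are shown because their metal response elements are the textbook route by which zinc acts on them. RefSeq windows of 300 bases (250 before the annotated start and 50 from it, build GRCm38.p6) were found for 4 of the 5 genes, all but Slc39a14. Capitals mark each match on either strand to the metal response element core, searched as TGCACNC or TGCGCNC. A match on the opposite strand appears here as its reverse complement. Mt1 lies on the plus strand with its window at chr8:94178839-94179138, Mt2 on the plus strand at chr8:94172368-94172667, and Slc30a1 on the plus strand at chr1:191906531-191906830.
Mt1: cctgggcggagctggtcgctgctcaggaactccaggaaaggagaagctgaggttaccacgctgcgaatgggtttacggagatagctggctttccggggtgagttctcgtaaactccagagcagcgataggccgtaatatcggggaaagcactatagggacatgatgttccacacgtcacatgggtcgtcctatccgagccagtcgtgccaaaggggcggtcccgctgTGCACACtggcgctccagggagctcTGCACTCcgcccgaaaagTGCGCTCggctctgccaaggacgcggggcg
Mt2: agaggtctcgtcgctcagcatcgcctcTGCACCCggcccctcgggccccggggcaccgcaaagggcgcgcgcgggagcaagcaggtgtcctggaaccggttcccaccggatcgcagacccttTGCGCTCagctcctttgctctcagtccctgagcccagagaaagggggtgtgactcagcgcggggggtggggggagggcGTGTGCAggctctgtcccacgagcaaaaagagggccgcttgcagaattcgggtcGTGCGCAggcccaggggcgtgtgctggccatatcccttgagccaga
Slc30a1: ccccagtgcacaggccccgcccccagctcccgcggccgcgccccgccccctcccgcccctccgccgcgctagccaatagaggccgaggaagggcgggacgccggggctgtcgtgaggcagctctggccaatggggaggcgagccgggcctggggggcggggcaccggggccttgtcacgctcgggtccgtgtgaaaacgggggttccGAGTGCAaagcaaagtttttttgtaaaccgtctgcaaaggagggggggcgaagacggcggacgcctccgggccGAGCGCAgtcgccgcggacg

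The Mt1 window held 3 matches, the Mt2 window 4 and the Slc30a1 window 2. Of the 32851 mouse windows of the same length, 25.7% held at least 1 match, 7.11% at least 2, 1.97% at least 3 and 0.517% at least 4. Slc39a8 had 2 windows, one with 0 matches and one with 1. The antioxidant response element core, searched as TGACNNNGC, was matched 1 time each in the windows of Mt2, Slc30a1 and the first start of Slc39a8, against 12.4% of all windows with at least 1 match. The STAT core TTCNNNGAA was matched in none of the 5 windows, and 8.3% of all windows held it. No match overlapped a match of another motif, and a match is a description of letters and not of a binding site. Mt2 (chromosome 8, 94172618 to 94173567) and Mt1 (chromosome 8, 94178883 to 94180327) are neighbours with 5315 bases between them. Slc39a14 lies on chromosome 14 (70303467 to 70351452), Slc39a8 on chromosome 3 (135816882 to 135888572) and Slc30a1 on chromosome 1 (191906697 to 191913248). The annotated starts of the Mt1 window (94179089), the Slc30a1 window (191906781) and the Slc39a8 windows (135825279 and 135825657) lie inside these gene intervals. Only the Mt2 start (94172618) is the first base of its interval. Matches around other starts of these genes were not counted.

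**Figure D1:**
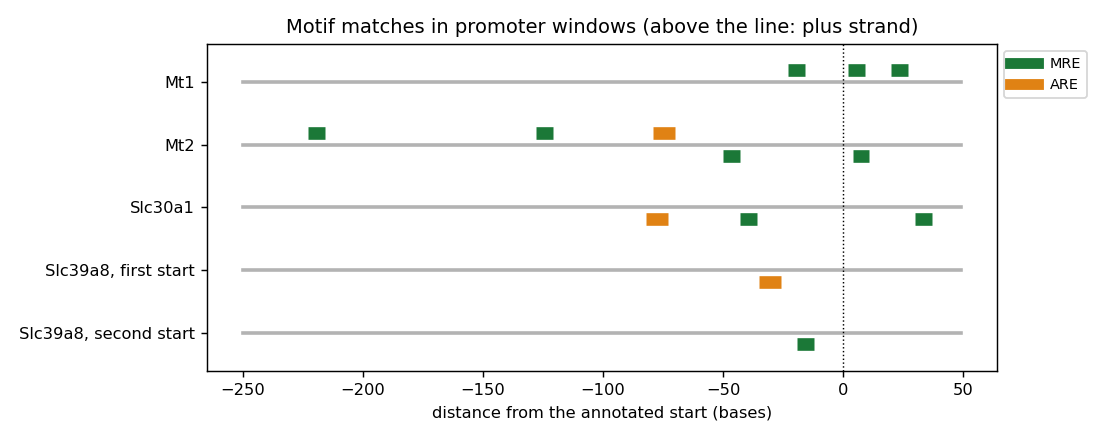
Matches of the metal response element core (MRE, green) and the antioxidant response element core (ARE, orange) in the RefSeq promoter windows, by distance in bases from the annotated start at 0. Marks above a line are on the plus strand and marks below it on the minus strand. Mt1 has 3 and Mt2 has 4 green marks, and the Slc30a1 window has 2.

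Array medians lay between 145.9 and 153.7 on the linear scale, and precision is limited by the number of arrays. Adipoq, the targeted gene, averaged 6.68 ± 0.904 log2 intensity in deficient mice and 8.48 ± 1.35 in wildtype mice (SD, n = 8 each). The Adipoq difference was -1.80 by a two-sided exact permutation test (p = 0.0042). In ozone it was -1.82 (exact permutation p = 0.0286, which no test of 4 arrays against 4 can go below), and in air -1.78 (exact permutation p = 0.143). Of 50 listed markers of lung cells and other tissues 45 were measured, none of them at 0, and the summed intensity of 3 alveolar type 2 markers (of 4 listed) lay between 46972 and 56712 over all arrays. 3 air arrays carried markers of other tissues. Deficient air M2 had summed intensities of 11171 for 4 squamous and 22186 for 4 skeletal muscle markers, and its group's other arrays had 204.7 to 239.0 and 462.4 to 493.7. Deficient air F2 and wildtype air F1 had sums of 5908 and 7045 for 5 of 6 fat markers, and the other 14 arrays lay between 505.7 and 1450. Wildtype ozone M2 had a sum of 35107 for 3 of 5 neutrophil markers, and the other arrays of its group had 1426 to 1602. One label of wildtype ozone F1, its description, named room air, but 3 other labels gave ozone, so it was kept with the ozone arrays.

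Both metallothioneins were higher after ozone in both genotypes. Mt2 rose 2.59-fold in deficient mice and 2.84-fold in wildtype mice, and the main Mt1 probe set rose 1.95-fold and 2.15-fold. The importer Slc39a14 rose 1.85-fold and 1.51-fold by one probe set and 1.42-fold and 1.39-fold by the other. Neither Slc39a8 nor the exporter Slc30a1 passed the test for ozone in either genotype. In deficient mice 5 of the 8 probe sets were called higher and 0 lower, beside 14.5% of all probe sets called higher and 14.8% lower. In wildtype mice 4 of 8 were called higher and 0 lower, beside 18.2% higher and 18.2% lower. The median difference over the 8 probe sets was 0.41 in deficient mice and 0.37 in wildtype mice, against 0.0022 and 0.016 over all probe sets.

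Mt1, a zinc-binding metallothionein, was read by 1422557_s_at at 11.41, 11.88, 11.38 and 11.45 log2 intensity in deficient ozone mice and at 10.54, 10.87, 10.27 and 10.59 in deficient air mice. Values per group run from M1 and M2 to F1 and F2 throughout. Every deficient ozone array lay above every deficient air array. In deficient mice 5 of the 8 probe sets were above air without overlap and 0 below, beside 14.1% and 13.1% of all probe sets, and in wildtype mice 4 and 0, beside 15.9% and 14.8%. Its level was 11.52, 12.33, 11.29 and 11.43 in wildtype ozone mice and 10.49, 10.81, 10.43 and 10.43 in wildtype air mice, again without overlap. The ozone difference was 0.96 ± 0.157 in deficient mice (adjusted p = 0.000348) and 1.10 ± 0.157 in wildtype mice (adjusted p = 0.000109), with 4 arrays per group. The M2 mouse had the highest Mt1 level in 4 of 4 groups. The suffix _s_at marks a set whose probes may match transcripts of more than one gene, so part of this Mt1 signal may come from a related transcript.

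Mt1 was also read by 1451612_at, at 5.70, 6.03, 5.58 and 5.62 in deficient ozone mice and 5.49, 5.37, 5.38 and 5.46 in deficient air mice. These 2 groups did not overlap, and the difference was 0.31 ± 0.106 (adjusted p = 0.0388). In wildtype mice this Mt1 set read 5.70, 6.01, 5.41 and 5.53 in ozone and 5.40, 5.29, 5.35 and 5.51 in air. The wildtype groups overlapped, and the difference of 0.28 ± 0.106 did not pass (adjusted p = 0.0539). The Mt1 call of 1451612_at in deficient mice did not hold without deficient ozone M2 (adjusted p = 0.135) or F2 (0.0649), or without deficient air M1 (0.0779), M2 (0.101) or F1 (0.0649). It was also lost without the 3 air arrays (0.133) and with no sex term (0.0630), and the adjusted p ran from 0.0174 to 0.249 over 28 alternatives. In wildtype mice it was gained without wildtype air F2 (0.0246), wildtype ozone F1 (0.0306) or deficient ozone M2 (0.0405), in a range of 0.0246 to 0.848.

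Mt2, the second metallothionein of the pair, read 9.82, 10.73, 10.00 and 10.19 in deficient ozone mice and 8.62, 9.46, 8.33 and 8.84 in deficient air mice. All 4 ozone arrays were above all 4 air arrays. The Mt2 level was 9.70, 10.99, 9.86 and 9.69 in wildtype ozone mice and 8.84, 8.83, 8.13 and 8.41 in wildtype air mice, without overlap. Its ozone difference was 1.37 ± 0.255 in deficient mice (adjusted p = 0.000915) and 1.51 ± 0.255 in wildtype mice (adjusted p = 0.000400). Over all groups, the order of the Mt2 means was deficient ozone 10.18, wildtype ozone 10.06, deficient air 8.81 and wildtype air 8.55, and the 2 ozone groups did not differ beyond their spread, nor did the 2 air groups. For Mt1 by 1422557_s_at the order was wildtype ozone 11.64, deficient ozone 11.53, deficient air 10.57 and wildtype air 10.54, with the same neighbours indistinguishable.

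**Figure D2:**
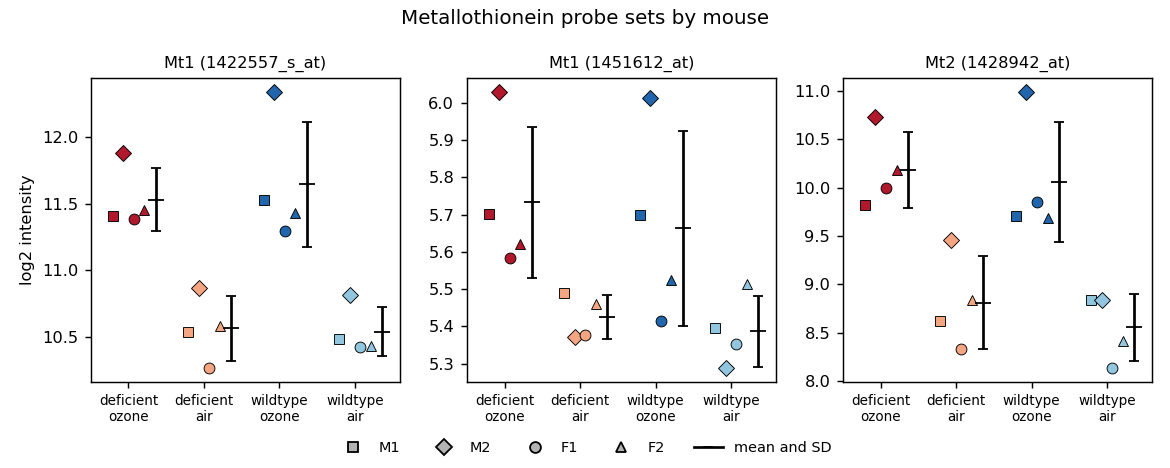
Log2 intensity of the 3 metallothionein probe sets in each mouse (1 point per array, shape by mouse label), with the mean and SD of the 4 arrays of a group. For Mt2 the ozone arrays lie between 9.69 and 10.99 and the air arrays between 8.13 and 9.46, and for Mt1 by 1422557_s_at the diamond (M2) is the highest point in 4 of 4 groups.

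The ozone calls of Mt2 and of Mt1 by 1422557_s_at held with any 1 array left out, while the size of the differences moved. Without wildtype ozone M2, which carried the high neutrophil sum, the wildtype ozone difference was 0.91 ± 0.119 for Mt1 by 1422557_s_at (adjusted p = 0.000114) and 1.25 ± 0.225 for Mt2 (adjusted p = 0.00102). Without wildtype ozone F1 these differences were 1.17 ± 0.171 for Mt1 and 1.498 ± 0.287 for Mt2. Without the 3 air arrays they were 1.13 ± 0.195 for Mt1 and 1.71 ± 0.292 for Mt2 in deficient mice, and 1.12 ± 0.174 and 1.43 ± 0.259 in wildtype mice. In fits of the males alone, with 2 arrays per group, the deficient differences of Mt1 (0.94, adjusted p = 0.0675) and Mt2 (1.24, adjusted p = 0.129) did not pass.

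Some markers of lung and other cells passed for ozone, in both directions, and no list rose or fell as a whole. The sum of 3 of 3 fibroblast markers was 11624 to 15438 in deficient ozone and 5860 to 8415 in deficient air mice, and 9500 to 14934 in wildtype ozone and 7234 to 9592 in wildtype air mice. The collagens Col1a1 and Col3a1 carried that sum, rising by 1.60 ± 0.162 and 1.18 ± 0.141 in deficient mice and by 1.19 ± 0.162 and 0.81 ± 0.141 in wildtype mice, while the third marker, the receptor Pdgfra, fell by 0.31 ± 0.0893 and by 0.39 ± 0.0893. The sum of 2 of 3 ciliated cell markers was 5453 to 5924 in deficient ozone and 3395 to 4374 in deficient air mice, and 5628 to 6339 in wildtype ozone and 3876 to 4685 in wildtype air mice. Of these 2, the tubulin Tubb4b rose by 0.60 ± 0.0697 in deficient and 0.51 ± 0.0697 in wildtype mice, and Foxj1, the transcription factor of motile cilia, did not pass (0.30 and 0.13). For 4 of 4 squamous markers the sum was 647.2 to 1011 in deficient ozone and 204.7 to 11171 in deficient air mice, and 749.4 to 966.2 in wildtype ozone and 205.6 to 270.6 in wildtype air mice. Only Sprr1a, a cornified envelope protein, passed among them, by 2.96 ± 0.644 in deficient and 3.76 ± 0.644 in wildtype mice, while Krt4, Krt13 and Krt5 did not pass in either genotype. Deficient air M2, with its high squamous sum, read 9.36 for Sprr1a, and its group's other arrays read 5.22 to 5.53. All these fits included that array. Krt13 in wildtype mice was higher in ozone without overlap (4.88 to 5.09 against 4.60 to 4.84), beside 15.9% of all probe sets.

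Other markers were lower after ozone. Siglecf, a lectin of alveolar macrophages and eosinophils, fell by 0.78 ± 0.161 in deficient and by 1.03 ± 0.161 in wildtype mice, and the other 3 of 4 macrophage markers did not pass. Ms4a1, the B cell antigen CD20, was lower, at -1.23 ± 0.435 in deficient and -1.34 ± 0.435 in wildtype mice, and the other of 2 B cell markers did not pass. In wildtype mice Cd3d of T cells fell by 0.57 ± 0.146 and Alas2 of erythroid cells by 0.44 ± 0.163. Of the markers of alveolar, club and endothelial cells, Ager rose in both genotypes, and Sftpb and Cdh5 rose and Hopx and Cyp2f2 fell in deficient mice. 0 fat, skeletal muscle, neutrophil or hepatocyte markers were called by limma in either genotype. The fat marker Cidec was still lower in ozone without overlap. It read 5.25 to 5.60 against 5.91 to 8.54 in deficient mice and 5.34 to 5.89 against 6.11 to 8.67 in wildtype mice. Fabp4 did so in deficient mice alone (8.38 to 9.12 against 9.31 to 12.26). Over all probe sets 13.1% and 14.8% were lower without overlap. The fits included deficient air F2 and wildtype air F1, the arrays with high fat sums. None of these markers was listed at 0, and their part in the metallothionein and Slc39a14 differences was not tested. In whole lung, a change in the number of cells of a type and a change in RNA per cell cannot be told apart.

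Slc39a14 encodes ZIP14, which imports zinc and also carries iron and manganese. Its probe set 1427035_at read 7.13, 7.82, 7.53 and 8.26 in deficient ozone mice and 6.70, 6.88, 6.95 and 6.66 in deficient air mice. In wildtype mice it read 7.17, 7.60, 7.60 and 7.03 in ozone and 6.72, 6.79, 6.75 and 6.76 in air. Ozone arrays were above air arrays in both genotypes, and the SD in ozone (0.474 in deficient and 0.295 in wildtype mice) stood beside 0.142 and 0.0285 in air. The Slc39a14 difference of 1427035_at was 0.89 ± 0.184 in deficient mice (adjusted p = 0.00208) and 0.59 ± 0.184 in wildtype mice (adjusted p = 0.0210). The wildtype call was lost without wildtype ozone M2 (0.48, adjusted p = 0.0707), without wildtype ozone F1 (0.52, 0.0629) and without the 3 air arrays (0.56, 0.0576), and in fits of either sex alone, in a range of 0.00681 to 0.164 over 29 alternatives. In males alone the deficient call was lost too (0.68, adjusted p = 0.0933).

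The second Slc39a14 probe set, 1425649_at, read 6.76, 6.83, 6.70 and 7.29 in deficient ozone mice and 6.32, 6.30, 6.49 and 6.44 in deficient air mice. In wildtype mice its level was 7.29, 7.15, 6.91 and 6.88 in ozone and 6.53, 6.51, 6.68 and 6.60 in air. The groups were apart in both genotypes. Its ozone difference was 0.51 ± 0.118 in deficient mice (adjusted p = 0.00448) and 0.47 ± 0.118 in wildtype mice (adjusted p = 0.00597), and both calls held with any 1 array left out. In females alone, with 2 arrays per group, neither passed (0.53 in deficient mice, adjusted p = 0.0557, and 0.25 in wildtype mice, adjusted p = 0.343). Both Slc39a14 probe sets were highest in deficient ozone F2 among the deficient ozone mice.

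Slc39a8 encodes ZIP8, an importer of zinc, manganese and cadmium. Its probe set 1416832_at read 10.97, 10.90, 11.20 and 11.24 in deficient ozone mice and 11.21, 10.82, 11.09 and 11.33 in deficient air mice. In wildtype mice it read 11.20, 11.41, 11.26 and 11.46 in ozone and 11.33, 11.33, 11.12 and 11.13 in air. Ozone and air arrays overlapped in both genotypes. The ozone difference of Slc39a8 was -0.04 (95% interval -0.26 to 0.19, adjusted p = 0.833) in deficient mice and 0.11 (-0.12 to 0.33, adjusted p = 0.461) in wildtype mice. The other Slc39a8 set, 1448482_at, ran from 9.06 to 9.85 in deficient ozone and 9.10 to 9.60 in deficient air mice, and from 9.26 to 10.08 in wildtype ozone and 9.02 to 10.34 in wildtype air mice. Its differences were 0.05 (-0.35 to 0.44, adjusted p = 0.879) and 0.07 (-0.33 to 0.46, adjusted p = 0.809).

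Slc30a1 encodes ZnT1, the exporter at the cell surface and, like the metallothioneins, a known MTF-1 target. It read 6.46, 6.61, 6.37 and 6.05 in deficient ozone mice and 6.44, 6.56, 6.43 and 6.32 in deficient air mice. In wildtype mice its level was 6.69, 6.55, 6.50 and 6.37 in ozone and 6.63, 6.78, 6.53 and 6.48 in air. The exposures overlapped in both genotypes. The ozone difference of Slc30a1 was -0.07 (95% interval -0.23 to 0.10, adjusted p = 0.577) in deficient mice and -0.08 (-0.24 to 0.09, adjusted p = 0.467) in wildtype mice. The upper bounds correspond to rises of 1.07-fold and 1.06-fold, below the lower bounds of 1.55-fold and 1.70-fold for Mt1 by 1422557_s_at in the same mice. They are not below those of Mt1 by 1451612_at, whose lower bounds were 1.06-fold in deficient and 1.04-fold in wildtype mice.

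**Figure D3:**
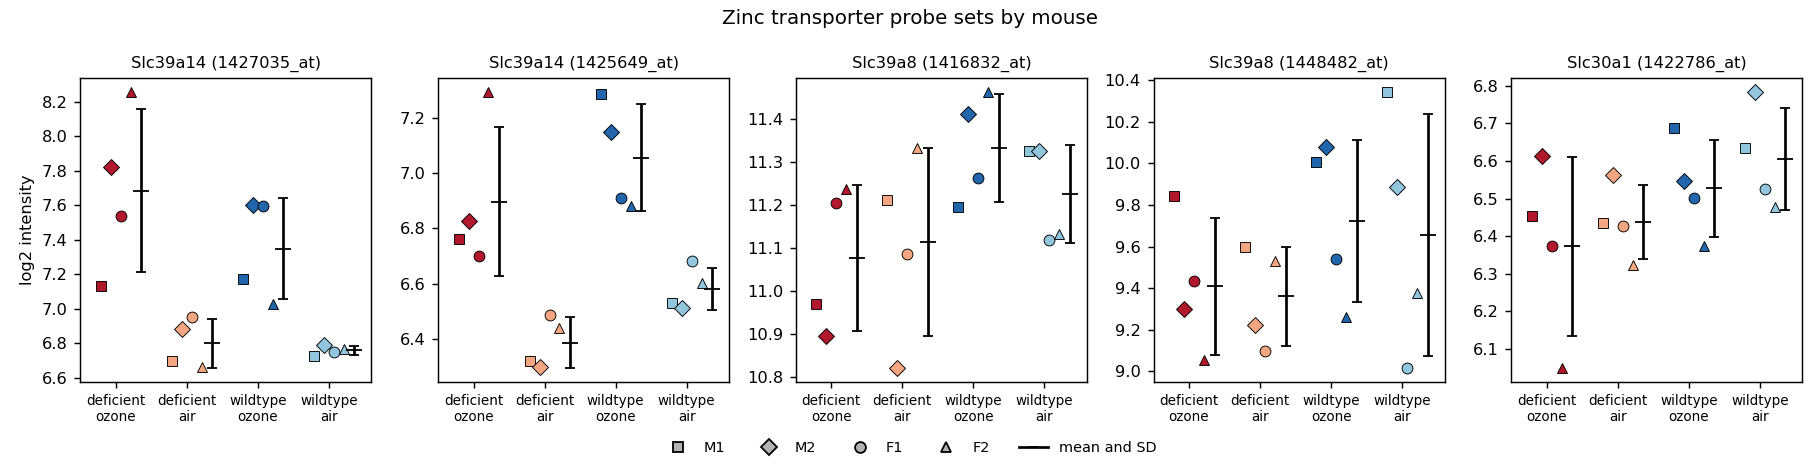
Log2 intensity of the 5 zinc transporter probe sets in each mouse, with the mean and SD of the 4 arrays of a group. Both Slc39a14 panels show ozone arrays above air arrays in each genotype, while the Slc39a8 and Slc30a1 panels show overlapping exposures.

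The genotype comparisons asked whether adiponectin deficiency moved these genes in air or in ozone, and whether it changed the ozone effect. In air 0 of 8 probe sets were called by limma and 1 had an unadjusted p under 0.05, beside 0.00884% of all probe sets called. In ozone 0 of 8 were called and 1 had an unadjusted p under 0.05, beside 0.0133% of all. The lowest adjusted p among the 8 was 0.718 in air and 0.395 in ozone. For Mt2 the deficient minus wildtype difference was 0.26 (95% interval -0.29 to 0.80) in air and 0.13 (-0.42 to 0.67) in ozone, and for Mt1 by 1422557_s_at it was 0.02 (-0.31 to 0.36) and -0.11 (-0.45 to 0.22). Slc39a14 by 1425649_at was lower without overlap in deficient air mice, at 6.30 to 6.49 against 6.51 to 6.68 in wildtype air mice, with a difference of -0.19 ± 0.118 that did not pass (adjusted p = 0.774). In air 1.75% of all probe sets were lower without overlap. Slc30a1 differed by -0.17 ± 0.0779 in air (adjusted p = 0.718) and -0.15 ± 0.0779 in ozone (adjusted p = 0.495), and Slc39a8 by 1416832_at differed by -0.26 ± 0.106 in ozone (adjusted p = 0.395).

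The ozone effect itself was not shown to differ between genotypes. None of the 8 probe sets was called by limma for the difference, 0 had an unadjusted p under 0.05, and 0% of all probe sets were called. The difference of the ozone effects, deficient minus wildtype, was -0.13 for Mt2 (95% interval -0.90 to 0.64, adjusted p = 0.995) and -0.14 for Mt1 by 1422557_s_at (-0.61 to 0.33, adjusted p = 0.988). It was 0.30 for Slc39a14 by 1427035_at (-0.26 to 0.85, adjusted p = 0.974) and 0.03 by 1425649_at (-0.32 to 0.39, adjusted p = 0.997). These intervals allow differences of the size of the smaller ozone effects, so equal responses were not shown either.

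**Figure D4:**
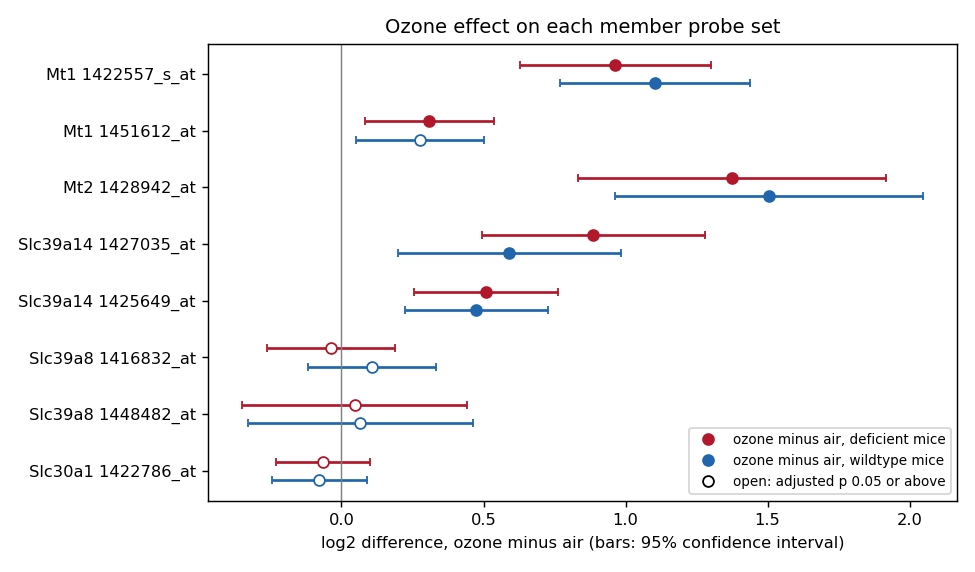
Ozone minus air difference on the log2 scale for each of the 8 probe sets, deficient mice in red above wildtype mice in blue, with 95% confidence intervals of the limma fit and open circles where the adjusted p was 0.05 or above. Mt2 and Mt1 by 1422557_s_at lie farthest from 0 in wildtype mice, and the Slc39a8 and Slc30a1 intervals cover 0.

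For sex a different pair of probe sets passed. Slc30a1 was lower in females, at 6.38 ± 0.151 against 6.59 ± 0.116 in males (SD, n = 8 each), a difference of -0.21 ± 0.0551 (limma adjusted p = 0.0296). Slc39a8 by 1448482_at was lower in females as well, at 9.29 ± 0.212 against 9.79 ± 0.387 in males, a difference of -0.49 ± 0.131 (limma adjusted p = 0.0299), while 1416832_at of Slc39a8 differed by 0.09 (adjusted p = 0.549). Thus 2 of 8 probe sets were called lower and 0 higher, beside 5.41% of all probe sets lower and 3.77% higher. The metallothioneins averaged 10.91 ± 0.521 in females and 11.23 ± 0.664 in males for Mt1 by 1422557_s_at (difference -0.32, adjusted p = 0.0853) and 9.18 ± 0.839 and 9.62 ± 0.880 for Mt2 (-0.44, adjusted p = 0.143), and neither passed. The Slc30a1 sex call did not hold without wildtype ozone M1 (adjusted p = 0.0537), wildtype air M2 (0.0593), wildtype ozone F2 (0.0586), deficient ozone M2 (0.0588) or the 3 air arrays (0.0913), in a range of 0.0251 to 0.0913. The Slc39a8 sex call was lost without wildtype air M1 (0.0575), M2 (0.0504) or F1 (0.0629), deficient air F1 (0.0565), wildtype ozone M1 (0.05003), M2 (0.0531) or F2 (0.0623), or deficient ozone M1 (0.0633) or F2 (0.0595), in a range of 0.0112 to 0.0633.

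Glucocorticoid targets moved with sex too. Of 10 listed glucocorticoid genes, 0 were higher and 5 lower in females, beside 3.77% of all probe sets higher and 5.41% lower. Among the 5 were Tsc22d3, which encodes the glucocorticoid-induced leucine zipper, at -1.11 ± 0.173 (limma adjusted p = 0.00176) and Fkbp5, a chaperone of the glucocorticoid receptor, at -1.01 ± 0.142 (adjusted p = 0.000885). Their part in the sex differences of the zinc genes was not tested. For the difference of the ozone effect between sexes, 0 of the 8 probe sets were called by limma and 1 had an unadjusted p under 0.05, beside 0.00442% of all probe sets called. That set was Mt1 by 1451612_at, with an ozone effect lower in females than in males by -0.36 ± 0.125 (adjusted p = 0.487).

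The rest of the zinc families gave a background for these genes, each counted by its probe set of highest mean. Of 4 metallothionein genes, Mt1 and Mt2 rose in both genotypes and 2 did not pass, so that the list had 2 higher and 0 lower. Mt3, the metallothionein best known from brain, lay between 6.48 and 6.77 on all arrays. Mt4, the metallothionein of stratified squamous epithelium, was 11.05 on deficient air M2 and between 4.32 and 4.58 on the other 15 arrays. That array also had the squamous markers Krt4 at 13.03 and Krt13 at 10.64, and it held the highest levels of its group for Mt2 and for Mt1 by 1422557_s_at. Without deficient air M2 the ozone difference in deficient mice was 1.02 ± 0.171 for Mt1 by 1422557_s_at and 1.53 ± 0.262 for Mt2.

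Over all probe sets, 14.5% were called higher and 14.8% lower after ozone in deficient mice, and 18.2% each in wildtype mice. Of 14 ZIP importers 10 were measured, and 4 rose, 1 fell and 5 did not pass in each genotype. The share that rose was above those of all probe sets, and the share that fell was near them. Slc39a14 had the largest difference of the 10. Slc39a11, which encodes ZIP11, rose by 0.31 ± 0.0736 in deficient and 0.30 ± 0.0736 in wildtype mice, and Slc39a7, the zinc channel ZIP7 of the endoplasmic reticulum and Golgi, by 0.30 ± 0.0534 and 0.16 ± 0.0534. Slc39a1, which encodes ZIP1 of the cell surface, rose by 0.30 ± 0.0811 in deficient mice (adjusted p = 0.0116), and its difference of 0.16 did not pass in wildtype mice (adjusted p = 0.126). Slc39a13, which encodes ZIP13, rose by 0.22 ± 0.0822 in wildtype mice (adjusted p = 0.0475), and its 0.19 in deficient mice did not pass (adjusted p = 0.0906). Slc39a6, which encodes ZIP6, fell by 0.36 ± 0.0772 in deficient and by 0.26 ± 0.0772 in wildtype mice. Its other set, 1424675_at, did not pass (-0.07, adjusted p = 0.492, and -0.12, adjusted p = 0.193). Slc39a3 was counted as not passing, but its other set, 1417882_at, rose by 0.34 ± 0.0774 in wildtype mice (adjusted p = 0.00316). In deficient mice that Slc39a3 set did not pass (0.10, adjusted p = 0.350). The median of the 10 was 0.15 in deficient and 0.13 in wildtype mice.

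Of 10 ZnT exporters 8 were measured, and 0 rose, 1 fell and 7 did not pass in each genotype, with a share lower near that of all probe sets (14.8% in deficient and 18.2% in wildtype mice). The member that fell was Slc30a9, encoding a mitochondrial zinc exporter, by 0.41 ± 0.0811 in deficient mice (adjusted p = 0.00155) and by 0.32 ± 0.0811 in wildtype mice (adjusted p = 0.00672). The ZnT median was -0.03 in deficient and -0.07 in wildtype mice. For genotype in air and in ozone, 0 of the 4 metallothioneins, 0 of the 10 ZIP genes and 0 of the 8 ZnT genes were called.

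**Figure D5:**
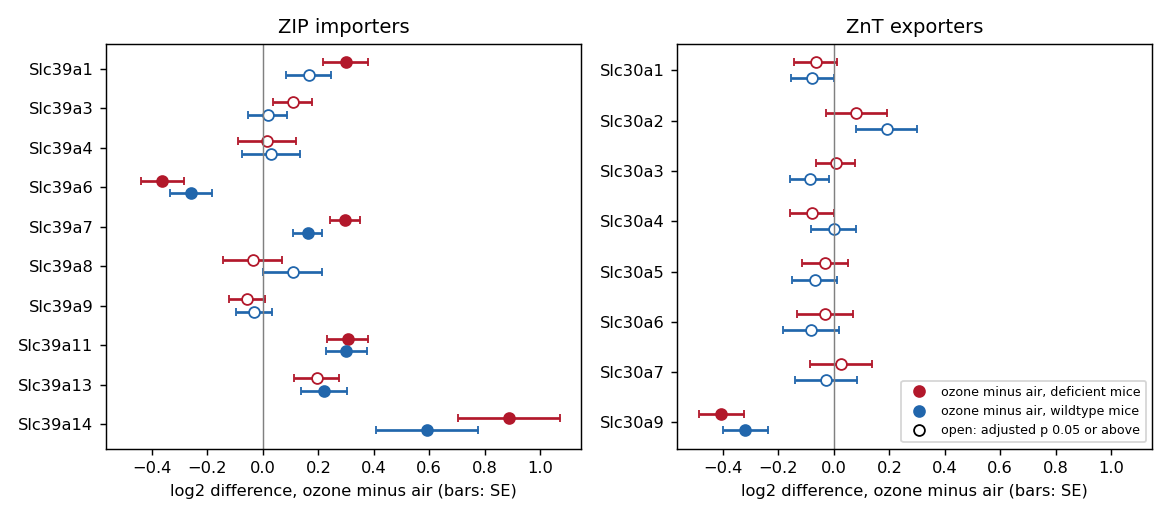
Ozone minus air difference on the log2 scale, ± SE, for the 10 ZIP importers and the 8 ZnT exporters measured, deficient mice in red above wildtype mice in blue, filled where called. Slc39a14 lies farthest to the right among the ZIP genes, Slc39a6 and Slc30a9 lie below 0, and the other ZnT genes have open circles.

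The metal-sensing transcription factor itself did not pass. Mtf1 differed by -0.08 ± 0.0860 in deficient mice (adjusted p = 0.536) and by 0.17 ± 0.0860 in wildtype mice (adjusted p = 0.139). Of 9 genes listed for metal sensing and as MTF-1 targets, 3 rose and 0 fell in deficient mice and 3 rose and 2 fell in wildtype mice, beside 14.5% higher and 14.8% lower over all probe sets in deficient and 18.2% each in wildtype mice. Hmox1, the heme oxygenase induced by oxidants, rose by 0.70 ± 0.0816 in deficient and 0.41 ± 0.0816 in wildtype mice, and Gclc, the catalytic subunit of the enzyme that starts glutathione synthesis, by 0.60 ± 0.0920 and 0.69 ± 0.0920. Csrp1, a LIM-domain protein, rose by 0.25 ± 0.0682 in deficient mice, and its 0.16 in wildtype mice did not pass (adjusted p = 0.0722). Tnfrsf8, the receptor CD30, rose by 0.30 ± 0.0903 in wildtype mice, and its -0.22 in deficient mice did not pass (adjusted p = 0.0817). Of the 2 that fell in wildtype mice, Mtf2, a Polycomb-associated protein, differed by -0.40 ± 0.0868 (adjusted p = 0.00247). Its set 1418514_at fell in both genotypes, by 0.37 ± 0.0858 in deficient (adjusted p = 0.00409) and by 0.41 ± 0.0858 in wildtype mice. The Mtf2 sets 1418515_at and 1449115_at did not pass in deficient mice. The other gene that fell was Selenow, a selenoprotein named here after its values were seen, by 1460561_x_at (-0.22, adjusted p = 0.0248), while its set 1416521_at rose by 0.89 ± 0.129 in wildtype mice.

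Copper handling genes were listed because metallothioneins also bind copper. Of 9, 4 rose, 2 fell and 3 did not pass in each genotype, beside 14.5% of all probe sets higher and 14.8% lower in deficient and 18.2% each in wildtype mice, and the share that fell is near these. Atox1, the chaperone that hands copper to the export pumps, rose by 0.48 ± 0.0656 in deficient and 0.53 ± 0.0656 in wildtype mice. Ccs, the copper chaperone of superoxide dismutase, rose by 0.28 ± 0.0542 and 0.26 ± 0.0542, and Commd1, which regulates copper export, by 0.27 ± 0.0629 and 0.23 ± 0.0629. Slc31a2, a copper transporter of internal membranes, fell by 0.62 ± 0.0736 and by 0.56 ± 0.0736. Cp, the plasma copper oxidase ceruloplasmin, rose by 0.91 ± 0.0946 and 0.71 ± 0.0946 by its set of highest mean, but its probe sets disagreed, with 1417497_at at -0.35 ± 0.109 (adjusted p = 0.0243) in deficient and -0.43 ± 0.109 (adjusted p = 0.00691) in wildtype mice.

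IL-6 and STAT3 are known to induce metallothioneins and ZIP14 in mouse liver, and genes of that route were listed for this reason. Of 13 listed genes 12 were measured, and 8 rose and 1 fell in deficient mice, while 5 rose and 1 fell in wildtype mice. Beside these, 14.5% of all probe sets were higher and 14.8% lower in deficient mice, and 18.2% each in wildtype mice. Cebpb, a transcription factor of the acute phase response, rose by 1.27 ± 0.167 in deficient mice and 1.10 ± 0.167 in wildtype mice. Socs3, the feedback inhibitor that STAT3 induces, rose by 1.18 ± 0.202 and 0.96 ± 0.202, and Stat3 itself by 0.66 ± 0.0913 and 0.58 ± 0.0913. The Stat3 set 1424272_at did not pass in deficient mice (0.10, adjusted p = 0.331) and rose in wildtype mice (0.28, adjusted p = 0.00882). Lif, a cytokine of the IL-6 family, rose by 0.66 ± 0.0981 and 0.28 ± 0.0981, but its set 1450160_at did not pass (0.15, adjusted p = 0.177, and 0.19, adjusted p = 0.0738). Il6 rose by 0.90 ± 0.190 in deficient mice (adjusted p = 0.00230), and its 0.43 ± 0.190 in wildtype mice did not pass (adjusted p = 0.0902). The Il6 levels were 5.07, 4.96, 4.94 and 6.21 in deficient ozone and 4.29, 4.43, 4.43 and 4.43 in deficient air mice, with the highest in F2 and no overlap. The part of IL-6 in the metallothionein and Slc39a14 differences was not tested. The difference of the Il6 ozone effect between genotypes was 0.47 ± 0.269 (adjusted p = 0.974). Il6ra, the receptor chain that binds IL-6, fell by 0.85 ± 0.132 in deficient and by 0.89 ± 0.132 in wildtype mice. Its other set, 1422270_a_at, did not pass (-0.22, adjusted p = 0.131, in deficient and -0.06, adjusted p = 0.703, in wildtype mice). Some sets outside the count fell in both genotypes. For Il6st, 1421239_at differed by -0.29 (adjusted p = 0.0102) in deficient and -0.44 (adjusted p = 0.000572) in wildtype mice. For Jak1, 1433804_at differed by -0.64 (adjusted p = 0.00242) and -0.88 (adjusted p = 0.000206). Other sets of Cebpb, Socs3 and Stat3 (1460700_at) rose in both genotypes.

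Glucocorticoids are another known inducer of mouse metallothioneins, and their genes were listed for this reason. Of 10, 0 rose, 3 fell and 7 did not pass in each genotype, beside 14.5% of all probe sets higher and 14.8% lower in deficient and 18.2% each in wildtype mice. The part of glucocorticoids in the metallothionein differences was not tested. Klf9, a transcription factor induced by glucocorticoids, fell by 0.63 ± 0.0783 in deficient and by 0.54 ± 0.0783 in wildtype mice. Hsd11b1, the enzyme that regenerates active glucocorticoid, fell by 0.53 ± 0.0644 and by 0.45 ± 0.0644, and Nr3c1, the glucocorticoid receptor, fell by 0.25 ± 0.0620 and by 0.28 ± 0.0620. Tsc22d3 and Fkbp5 did not pass for ozone, with differences of 0.09 and 0.06 in deficient mice and 0.04 and 0.08 in wildtype mice.

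The genes whose levels ran most like each member were taken by Pearson's r over the 16 arrays, as a description without a test, since all arrays share the ozone and air split. The value of r for deviations from group means is given after each. Mt1 ran most like Mt2 (r = 0.967, deviations 0.910), then like Cltb, a clathrin light chain (0.949, 0.735), and Ldha, lactate dehydrogenase A (0.940, 0.684). Mt2 ran most like Glrx, the thiol reductase glutaredoxin (0.968, 0.936), then Mt1, Cebpb (0.943, 0.792), Ldha (0.940, 0.769) and Gsr, glutathione reductase (0.930, 0.827). Slc39a14 ran most like Ccl2, a monocyte chemokine (0.924, 0.731), Ctps, a CTP synthase (0.923, 0.819), and Bcl3, a nuclear partner of NF-kappaB (0.913, 0.790). Against Mt2, Slc39a14 had r = 0.817 over all arrays and 0.412 for deviations. The closest gene to Slc39a8 was the chemokine Ccl25 (0.785, 0.742), followed by Chrna3, a nicotinic receptor subunit (0.778, 0.663), and the presynaptic Bsn (0.710, 0.673). Slc30a1 ran most like Prkch, a protein kinase C (0.856, 0.835), Smoc2, a matrix protein (0.846, 0.827), and Nmb, neuromedin B (0.842, 0.843).

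Within an exposure, 8 relations between member probe sets were computed over 8 mice each. Each pooled both genotypes and both sexes without adjustment, and the part of either in these values was not tested. Among air mice, Mt1 by 1422557_s_at and Mt2 ran together (r = 0.836, two-sided exact permutation p = 0.00801, adjusted 0.0302, with rho = 0.810, exact p = 0.0218, adjusted 0.0980), and r was 0.690 without the 2 mice farthest from the median. Among ozone mice r was 0.897 (exact permutation p = 0.0113, adjusted 0.0302, with rho = 0.476, exact p = 0.243, adjusted 0.486), but it was -0.158 without the 2 farthest mice, so the relation rests on them. The 2 Mt1 probe sets ran together in ozone (r = 0.888, exact permutation p = 0.00238, adjusted 0.0190, with rho = 0.786, exact p = 0.0279, adjusted 0.0980, and r = 0.789 without the 2 farthest) and not in air (r = -0.355, exact permutation p = 0.391, adjusted 0.587, with rho = -0.190, exact p = 0.665, adjusted 0.886, and r = 0.491 without the 2 farthest). The 2 Slc39a14 probe sets did not run together in ozone (r = 0.322, exact permutation p = 0.440, adjusted 0.587, with rho = 0.405, exact p = 0.327, adjusted 0.523, and r = 0.195 without the 2 farthest). In air their r was -0.114 (exact permutation p = 0.795, adjusted 0.909, with rho = -0.0238, exact p = 0.977, adjusted 0.977, and r = -0.0403 without the 2 farthest). The 2 Slc39a8 sets had r = 0.0453 in ozone (exact permutation p = 0.914, adjusted 0.914, with rho = -0.0714, exact p = 0.882, adjusted 0.977, and r = 0.0311 without the 2 farthest). In air their r was 0.674 (exact permutation p = 0.0685, adjusted 0.137, with rho = 0.762, exact p = 0.0368, adjusted 0.0980, and r = 0.938 without the 2 farthest), and neither passed after adjustment.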

How the data were processed

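Biotin-labelled RNA from 1 left lung was hybridised to each of 16 Affymetrix arrays, per the labels. Per the submitters' processing notes, the authors deposited linear intensities summarised by RMA. In the sources used here the RMA program is not given. RMA normalizes between arrays and hides a shift common to all transcripts. The log2 of the intensity was taken, 64 control probe sets of 22690 were left out, and all 22626 others were fitted with limma 3.58.1 in R 4.3.3 (lmFit, eBayes) with 4 groups plus sex, or 8 groups for ozone by sex. The platform annotation gave 1 symbol to 20380 probe sets, several to 691 and none to 1555, and can be old. No detection calls were used. Nothing in the labels says whether mice of one number shared a litter or day, and p-values measure the spread between these mice.

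The members and gene lists were chosen with earlier results of these data known. Named genes were all member probe sets, up to 5 called genes per list with the largest ozone difference, fixed regulators, and the 3 genes (5 for Mt2) most like each member. Listed genes are given by their probe set of highest mean. Other sets of some of them were called differently, among them sets of Atox1, Commd1, Csrp1, Il6st, Jak1, Klf9, Slc39a3 and Stat3. Mt3, Mt4 and Selenow were named after their values were seen. Alternatives were other normalizations, a filter on dim probe sets, 1 value per gene, prior, array weights, threshold, sex term, replicate block, each sex alone, the 3 air arrays left out and each array left out. The method was tested on simulated data. Python 3.11.15 drew figures and ran exact permutation tests.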

Additional observations from a re-analysis of the deposited data

Results flagged for a closer look

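Within groups of 4 mice, 40 groups of values were examined for 1 array far from the other 3, and chance marks about 1 in 20 such groups. There were 4 such values, each from a mouse labelled M2. Mt1 by 1422557_s_at was 11.88 in deficient ozone M2, while the other deficient ozone mice lay between 11.38 and 11.45. Mt1 by the same set was 10.81 in wildtype air M2, and the other wildtype air mice had 10.43 to 10.49. Mt2 was 10.99 in wildtype ozone M2, the array with the neutrophil marker S100a8 at 13.68, and the other wildtype ozone mice had 9.69 to 9.86. Mt4 was 11.05 in deficient air M2, and its group's other mice had 4.34 to 4.45. The cause was not tested.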

How the results depend on the processing

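Of the single probe set results under the alternatives, 1471 kept their side of the threshold, 37 lost a call, 7 gained one and 0 reversed a called direction. Many of these belong to the genotype, interaction and ozone-by-sex comparisons, which had no call to lose. The sex calls changed in 6 of 24 alternatives for Slc30a1 and 10 of 23 for Slc39a8 by 1448482_at. In wildtype mice the ozone call changed in 6 of 29 for Slc39a14 by 1427035_at and in 0 of 29 for Mt2. In females alone 2 of 8 probe sets were called for ozone in wildtype mice, against 4 in all mice. For ozone in deficient mice, against 5 in all mice, 1 was called in males alone and 3 in females alone, and 3 of 5 genes with 1 probe set per gene or the mean of probe sets per gene, where fewer values are tested. For sex, against 2 of 8, 1 of 5 was called with 1 probe set or the mean per gene, 0 at an adjusted p under 0.01, 1 without the 3 air arrays and 0 to 2 with each array left out. With each array left out the ozone counts were 3 to 5 in wildtype and 4 to 5 in deficient mice. Adipoq differed by -1.78 in air arrays alone (exact permutation p = 0.143). Mice with the same number deviated together in most pairs of groups but not all (r from -0.0377 to 0.409), and within a sex the deviations correlated at -0.0967 to 0.129, so numbers were not taken as pairs. With the replicate block, 4 probe sets were called for ozone in wildtype and 5 in deficient mice and 0 for genotype or its interaction with ozone, as without it. The number of arrays limits the precision, and signal over background is unknown.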
